A study of Mus musculus with 12 samples.

Results

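B cell development genes were followed in RNA from the meninges of DSS-treated and untreated mice. They are 9 genes chosen by symbol, of 47747 symbols in the count table: 6 genes of B cell precursors (Vpreb1, Vpreb3, Igll1, Rag1, Rag2 and Dntt) and 3 genes named pan-B here (Pax5, Ebf1 and Ms4a1). Meninges, the membranes around the brain, were taken from 12 C57BL/6 mice. In the DSS group, 6 mice had received 2% dextran sulfate sodium, a polymer that injures the colon lining, in drinking water for 5 days and then plain water. They were culled after 6 days, counted from a day that the labels do not state. In the Control group, 6 mice carried only the treatment label Control; what they drank, like the age and sex of all mice, is not stated in these sources. Each mouse gave 1 stranded total RNA library.

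B cells arise in bone marrow from progenitors that rearrange their immunoglobulin genes. Rag1 and Rag2 encode the recombinase that cuts the gene segments, and Dntt encodes the polymerase that adds bases at the joints. The heavy chain is first tested with a surrogate light chain, built from the products of Vpreb1 and Igll1. Ebf1 and Pax5 encode the transcription factors that start and hold B cell identity, and Ms4a1 encodes CD20, a surface protein of B cells that have passed the earliest stages. Ebf1 is also transcribed outside the B lineage, in stromal cells, pericytes and cells of the fat lineage. The comparison asks whether DSS mice differ from Control mice in these genes, and whether precursor genes and pan-B genes differ alike.

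Libraries held between 9312788 and 41869997 counts, so 3 counts stood for 0.0647 CPM in the deepest library and 0.270 CPM in the shallowest. CPM here is the count scaled to a common library size, adjusted by TMM factors. Although the source label reads Colon, Cdx2, which encodes a transcription factor of the gut lining, had 0 counts in all 12 libraries, and the collagen gene Col1a1 lay between 4280 and 9121 CPM in DSS mice and between 4164 and 7044 CPM in Control mice. One library of each group stood apart. In DSS replicate 2, 5 skeletal muscle genes summed to 153.0 CPM, against 1.53 to 4.06 CPM in the other DSS mice and 3.48 to 8.54 CPM in Control mice. In Control replicate 2, 2 ribosomal RNA rows took 59.8% of counts, against 0.0430% to 2.76% in DSS mice and 0.194% to 9.23% in the other Control mice.

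Of the 9 genes, 4 passed the filter on low counts (Rag1, Pax5, Ebf1 and Ms4a1). The other 5 (Vpreb1, Vpreb3, Igll1, Rag2 and Dntt) did not and were compared one by one. The quasi-likelihood test of edgeR, adjusted over 18593 genes by Benjamini-Hochberg, called 0 of the 4 at an adjusted p under 0.05, against 4.94% of all tested genes (919 genes). Ms4a1 was the 1 gene of the 4 with an unadjusted p under 0.05, where 19% of all genes lay. Without DSS replicate 3 the same test called 1 of these genes, Ms4a1. DESeq2 called 0, limma-trend 0, and limma-voom with sample quality weights 2, Ms4a1 and Pax5. Single mice also moved the count of 919 genes: it was 538 when DSS replicate 6 was left out, 559 for DSS replicate 4, 608 for Control replicate 5 and 1379 for DSS replicate 2.

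The 3 pan-B genes did not follow 1 pattern: Ms4a1 and Pax5 were low and widely spread among DSS mice and close together among Control mice, while Ebf1 was abundant and alike in both groups. Ms4a1 (chr19:11249675-11266241, GRCm38, minus strand) had a lowest, median and highest value of 0.105, 0.543 and 1.71 CPM in DSS mice, against 1.5, 1.71 and 2.08 CPM in Control mice. The counts behind these values were 3 to 43 in DSS mice and 19 to 91 in Control mice. In 5 of 6 DSS mice Ms4a1 lay below the lowest Control mouse, and DSS replicate 3 lay inside the Control range. The means were 0.725 ± 0.628 CPM in DSS mice and 1.76 ± 0.227 CPM in Control mice (SD, n = 6 each). Its log2 fold change was -1.33 ± 0.48 (SE), with an unadjusted p of 0.0144 and an adjusted p of 0.132 by edgeR. Without DSS replicate 3 the log2 fold change was -1.85 and the edgeR adjusted p 0.0302. With limma-voom it was -1.96 with an adjusted p of 0.0149, and over all alternatives the adjusted p ran from 0.0149 to 0.262. An exact two-sided permutation test of log2 CPM over every way to split the mice, added after the data were seen, gave an unadjusted p of 0.00866. In a bulk sample, fewer cells of a type and less RNA per cell cannot be told apart.

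Pax5 (chr4:44524757-44710487, minus strand) spread in the same mice. Its lowest, median and highest values were 0.123, 0.433 and 1.83 CPM in DSS mice, against 1.04, 1.20 and 1.55 CPM in Control mice, from 3 to 46 counts in DSS mice and 12 to 64 counts in Control mice. Here 4 DSS mice lay below every Control mouse, DSS replicate 2 lay among them, and DSS replicate 3 lay above all of them, so the groups overlapped. The means were 0.690 ± 0.679 CPM in DSS mice and 1.24 ± 0.203 CPM in Control mice (SD, n = 6 each). The log2 fold change of -0.90 ± 0.51 (SE) had an edgeR adjusted p of 0.373. limma-voom gave a larger difference of -1.61 with an adjusted p of 0.0421, within a range of 0.0421 to 0.562 over the alternatives. Without DSS replicate 3, edgeR gave -1.56 with an adjusted p of 0.0683. The exact permutation test of log2 CPM gave an unadjusted p of 0.0541.

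Ebf1 (chr11:44617317-45008091, plus strand) was far more abundant than the rest of the set. Its lowest, median and highest values were 40.7, 51.5 and 57.7 CPM in DSS mice, against 45.3, 50.4 and 63.3 CPM in Control mice. The groups overlapped over most of their range, with means of 50.3 ± 6.06 CPM in DSS mice and 51.6 ± 6.19 CPM in Control mice (SD, n = 6 each). The log2 fold change was -0.04 ± 0.09 (SE; edgeR adjusted p = 0.892). Among the mural cell and fibroblast markers listed beside it, Pdgfrb, a receptor gene of pericytes, lay between 301 and 372 CPM in DSS mice and between 305 and 395 CPM in Control mice. The summed level of all 10 of these markers lay between 6250 and 11275 CPM in DSS mice and between 6270 and 9246 CPM in Control mice. Their part in the Ebf1 level was not tested.

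**Figure D1:**
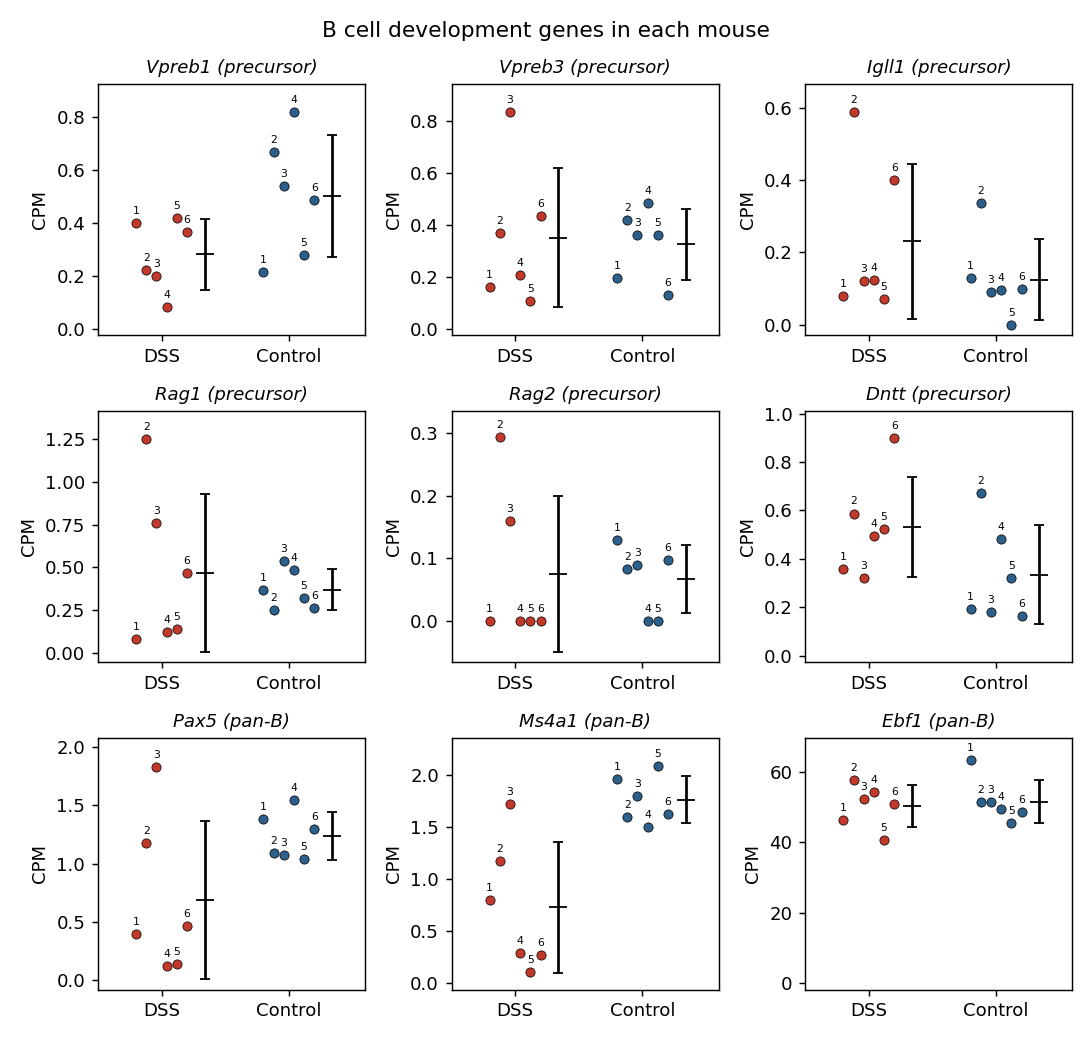
Level of each B cell development gene in CPM (vertical axis, linear, its own scale in each panel) for DSS mice (left, red) and Control mice (right, blue); numbers are replicates, and the bar is the mean with its SD, n = 6 each. Ms4a1 and Pax5 lie close together in Control mice and apart in DSS mice, where replicate 3 is highest for both at 1.71 and 1.83 CPM, while Ebf1 lies between 40.7 and 63.3 CPM in all 12 mice.

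The precursor genes lay near the counting limit in both groups. Rag1 (chr2:101638282-101649501, minus strand), the gene of the catalytic subunit, was the 1 precursor gene that passed the filter. Its lowest, median and highest values were 0.08, 0.303 and 1.25 CPM in DSS mice, against 0.252, 0.343 and 0.539 CPM in Control mice. DSS mice lay on both sides of the Control mice, with 3 below all of them and 2, replicates 2 and 3, above. The fitted log2 fold change of Rag1 was 0.26 ± 0.57 (SE; edgeR adjusted p = 0.873), whereas the difference of mean log2 CPM had the other sign, -0.11. Without DSS replicate 2 the fitted value was -0.19. Rag2 (chr2:101624718-101632529, plus strand), the partner of Rag1, had 0 counts in 4 DSS mice and in 2 Control mice. The highest Rag2 values were 0.294 CPM in DSS mice, from 4 counts, and 0.129 CPM in Control mice, from 6 counts (exact permutation p = 0.827). At 0 counts the data allow up to 3 counts, which is 0.0998 to 0.123 CPM in those 4 DSS libraries and 0.120 to 0.145 CPM in those 2 Control libraries.

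Dntt (chr19:41029275-41059525, plus strand) had lowest, median and highest values of 0.319, 0.509 and 0.898 CPM in DSS mice, against 0.163, 0.257 and 0.671 CPM in Control mice. The groups overlapped, with DSS replicate 6 above every Control mouse and no DSS mouse below the lowest one. Mean log2 CPM differed by 0.62, within the spread between mice (exact permutation test, p = 0.0952, unadjusted). Without Control replicate 2, where Dntt was highest among Control mice, the difference was 0.82 and the unadjusted exact permutation p 0.0281. With any other single mouse left out, the unadjusted exact permutation p ran from 0.0671 to 0.180.

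The surrogate light chain genes did not share a direction. Vpreb1 (chr16:16868403-16870843, minus strand) had lowest, median and highest values of 0.0821, 0.293 and 0.420 CPM in DSS mice, against 0.216, 0.514 and 0.822 CPM in Control mice. In 4 Control mice Vpreb1 lay above every DSS mouse, and 2 DSS mice lay below every Control mouse. The difference in mean log2 CPM was -0.68 (exact permutation p = 0.0931, unadjusted). It was -0.86 without Control replicate 1, where Vpreb1 was lowest among Control mice (exact permutation p = 0.0368, unadjusted). With any other single mouse left out, the unadjusted exact permutation p ran from 0.0606 to 0.188. Igll1 (chr16:16860671-16863985, minus strand), which encodes the lambda5 protein, ran from 0.0700 to 0.587 CPM in DSS mice, with a median of 0.121, and from 0 to 0.335 CPM in Control mice, with a median of 0.0972. Its values rest on 2 to 12 counts in DSS mice and 0 to 6 counts in Control mice, and the groups overlapped (difference 0.51, exact permutation p = 0.318). Vpreb3 (chr10:75943057-75949657, plus strand), whose product is found with immature immunoglobulin chains, ran from 0.105 to 0.837 CPM in DSS mice, with a median of 0.286, and from 0.130 to 0.484 CPM in Control mice, with a median of 0.360. Again DSS replicate 3 was the highest mouse, and the difference was -0.04 (exact permutation p = 0.926).

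Counts of Vpreb1 may also draw on a sister gene and a neighbour. Vpreb2 lies on the same chromosome, and 136 of the 1252 stretches of 75 bases in Vpreb1 transcripts occur in Vpreb2 as well. The longest shared run has 196 bases and is shown in full because a read inside it names neither gene.
Vpreb1 and Vpreb2: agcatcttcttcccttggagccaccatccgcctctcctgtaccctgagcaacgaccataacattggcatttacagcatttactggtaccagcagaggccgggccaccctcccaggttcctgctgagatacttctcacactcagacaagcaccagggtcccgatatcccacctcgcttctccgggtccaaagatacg
Vpreb2 had 0 counts in all DSS mice and 2 counts in 1 Control mouse. Exons of Vpreb1 also overlap those of Top3b, a topoisomerase gene on the other strand with 10676 counts in all. The longest overlap of a single exon pair there has 94 bases. Exons of Rag1 and Rag2 overlap those of B230118H07Rik, with longest overlaps of 80 and 208 bases. The libraries were stranded, but the strand setting of the counting is not given in the sources used here, so reads from the overlaps of Vpreb1 and Rag2, whose neighbours lie on the other strand, are uncertain. Rag1 and B230118H07Rik lie on the same strand, so reads from their overlap are uncertain under any strand setting.

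The RefSeq set used here held no promoter window for Ms4a1. Promoter windows (GRCm38.p6, 250 bases before to 50 bases after a start) were found for 8 of the 9 genes. They are shown for Pax5 and Rag1, a pair called by Pearson's r but not by Spearman's rho over the mice, and for Igll1, the 1 gene of the 8 whose window held the EBF core CCCNNGGG. Capitals mark this core and E-boxes (CANNTG), searched on both strands.
Pax5 (chr4:44710645-44710944, minus strand): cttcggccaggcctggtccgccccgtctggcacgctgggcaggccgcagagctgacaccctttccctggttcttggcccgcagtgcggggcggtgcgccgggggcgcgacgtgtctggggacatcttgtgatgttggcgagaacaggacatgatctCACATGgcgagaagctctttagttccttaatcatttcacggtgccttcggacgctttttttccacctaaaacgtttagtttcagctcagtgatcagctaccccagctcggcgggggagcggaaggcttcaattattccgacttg
Rag1 (chr2:101649483-101649782, minus strand): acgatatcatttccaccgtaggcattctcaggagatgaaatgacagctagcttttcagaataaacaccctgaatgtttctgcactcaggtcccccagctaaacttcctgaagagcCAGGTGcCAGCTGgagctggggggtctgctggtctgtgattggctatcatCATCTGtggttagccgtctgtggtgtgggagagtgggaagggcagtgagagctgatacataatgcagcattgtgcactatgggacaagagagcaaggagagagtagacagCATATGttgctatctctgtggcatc
Igll1 (chr16:16863936-16864235, minus strand): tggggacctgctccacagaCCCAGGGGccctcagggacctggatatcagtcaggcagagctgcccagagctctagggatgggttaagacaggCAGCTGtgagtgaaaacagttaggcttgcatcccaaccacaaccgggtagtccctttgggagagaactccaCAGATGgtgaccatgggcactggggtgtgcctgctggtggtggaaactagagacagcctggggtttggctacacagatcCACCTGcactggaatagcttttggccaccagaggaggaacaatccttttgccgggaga
Of 32851 RefSeq windows of this length, 13.671% hold the EBF core and 72.314% an E-box. The Igll1 core starts at -231 from the start site, and E-boxes start at -158, -87 and -8. In Pax5 the one E-box starts at -94, and in Rag1 they start at -135, -128, -85 and 25. The E-boxes of the form CAGGTG, held by 20.212% of windows, are those at -8 in Igll1 and -135 in Rag1.

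Per length, the genes also ordered differently in the groups. On the scale of CPM per kilobase of exon, the medians in DSS mice were 5.28 for Ebf1, 0.333 for Vpreb3, 0.244 for Vpreb1, 0.222 for Dntt, 0.0878 for Ms4a1, 0.0561 for Igll1, 0.0489 for Pax5, 0.0458 for Rag1 and 0 for Rag2. In Control mice they were 5.17 for Ebf1, 0.428 for Vpreb1, 0.419 for Vpreb3, 0.277 for Ms4a1, 0.135 for Pax5, 0.112 for Dntt, 0.0519 for Rag1, 0.0449 for Igll1 and 0.0254 for Rag2. Below Ebf1, neighbours in the DSS order overlapped over mice; in the Control order Ms4a1 and Pax5 did not overlap, and the other neighbours did. Ebf1 was also the highest of the 4 EBF family genes, ahead of Ebf4 (3.00 in DSS mice, 3.03 in Control mice), Ebf2 (1.17 in DSS mice, 1.21 in Control mice) and Ebf3 (0.606 in DSS mice, 0.527 in Control mice). Of the PAX family, Pax1 and Pax6 had the highest medians, 1.01 and 0.544 in DSS mice and 1.01 and 0.586 in Control mice, all above Pax5.

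Set against each other, the mean over the precursor genes was close between the groups, and that over the pan-B genes was lower and more spread in DSS mice. The precursor mean joined single-gene differences in log2 CPM of both signs. These were -0.68 for Vpreb1, -0.14 for Rag2, -0.11 for Rag1, -0.04 for Vpreb3, 0.51 for Igll1 and 0.62 for Dntt. Among the pan-B genes they were -1.60 for Ms4a1, -1.24 for Pax5 and -0.04 for Ebf1. The mean log2 CPM of the 6 precursor genes was -1.66 ± 0.590 in DSS mice and -1.69 ± 0.327 in Control mice (SD, n = 6 each). That of the 3 pan-B genes was 1.35 ± 0.862 in DSS mice and 2.31 ± 0.108 in Control mice. Precursor minus pan-B was -3.01 ± 0.609 in DSS mice and -4.00 ± 0.372 in Control mice, a difference of 0.99, given as a description with no test because the genes were chosen with earlier results known. This value is above the highest Control mouse in 4 DSS mice, and DSS replicates 1 and 3 lie within the Control range. In summed CPM, the precursor genes spanned 1.03 to 3.30 in DSS mice and 1.23 to 2.43 in Control mice, whereas Pax5 plus Ms4a1 spanned 0.245 to 3.55 in DSS mice and 2.68 to 3.34 in Control mice. The ratio of precursor counts to Pax5 plus Ms4a1 counts ran from 0.674 to 5.14 in DSS mice and from 0.368 to 0.906 in Control mice. It was highest in DSS replicates 5, 6 and 4, the mice with the lowest Pax5 plus Ms4a1.

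**Figure D2:**
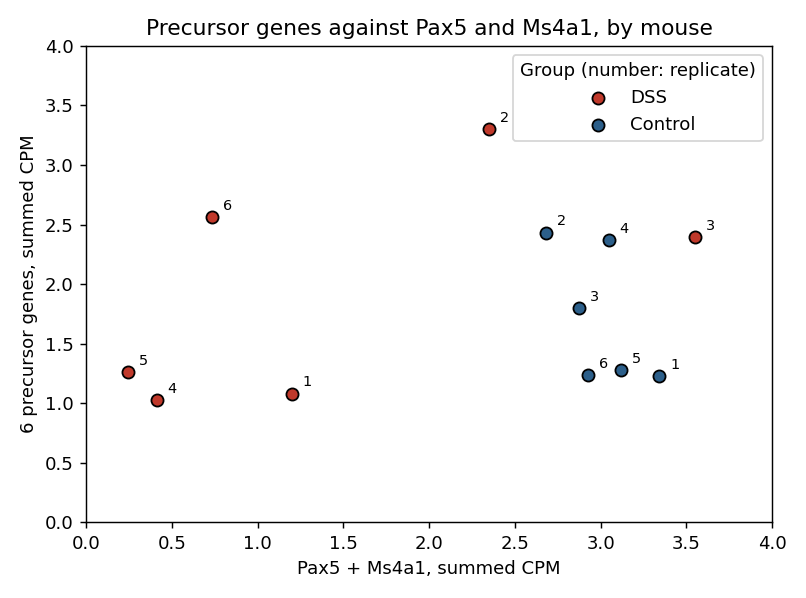
Summed CPM of the 6 precursor genes (vertical axis) against summed CPM of Pax5 and Ms4a1 (horizontal axis); each point is a mouse, DSS in red and Control in blue, numbered by replicate. Control mice lie between 2.68 and 3.34 CPM on the horizontal axis, while DSS mice spread from 0.245 to 3.55, and on the vertical axis the groups overlap.

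Of the 2 receptor chain genes, Cd79a was low in 3 of the DSS mice with low Ms4a1 and Pax5, and Cd79b overlapped between the groups; neither was called. Cd79a, a chain of the B cell receptor, ran from 0.328 to 2.83 CPM in DSS mice and from 1.44 to 1.98 CPM in Control mice (log2 fold change -0.41; edgeR adjusted p = 0.720). In DSS replicates 4, 5 and 6 Cd79a lay below every Control mouse, in replicates 2 and 3 above, and in replicate 1 inside the Control range. Cd79b, the partner chain, did not separate, at 2.98 to 5.34 CPM in DSS mice and 3.10 to 4.59 CPM in Control mice (log2 fold change 0.07; edgeR adjusted p = 0.878). Among the 4 genes whose level over the 12 mice was most like Ms4a1, after subtracting each group's mean from log2 CPM, were Cd79a (Pearson's r = 0.93), Phlpp1 (0.90) and Zfyve27 (0.88), given as a description.

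**Figure D3:**
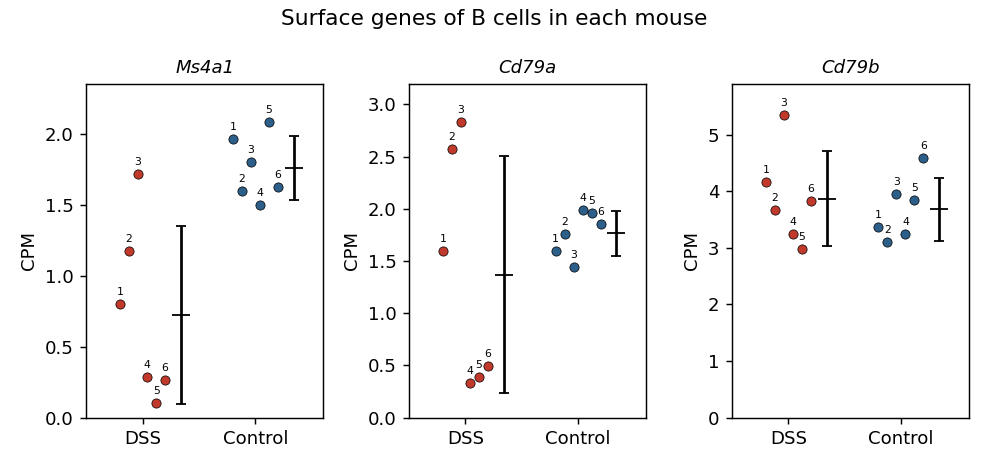
CPM of Ms4a1, Cd79a and Cd79b (vertical axis, starting at 0) in DSS mice (left, red) and Control mice (right, blue), numbered by replicate, with mean and SD, n = 6 each. In DSS replicates 4, 5 and 6, Ms4a1 and Cd79a lie below all Control mice, and Cd79b overlaps between the groups.

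Over the 12 mice, with group means removed, Pax5 went with Ms4a1 (Pearson's r = 0.85, permutation p = 0.00105, adjusted over 36 pairs 0.0369; Spearman's rho = 0.48, permutation p = 0.115, adjusted 0.296). Without the 2 mice farthest from the median r was 0.79. Within DSS mice alone it was 0.88 and within Control mice -0.46. Rag1 went with Pax5 (r = 0.80, permutation p = 0.00205, adjusted 0.0369; rho = 0.75, permutation p = 0.00683, adjusted 0.246), with r = 0.88 without the 2 farthest mice, 0.83 within DSS mice and 0.24 within Control mice. Of the 36 pairs, Pearson's r called 2 and Spearman's rho 0. The resamples moved values between the groups, although Pax5, Ms4a1 and Rag1 spread more widely in DSS mice, so these p-values are approximate. They do not show a correlation that holds in both groups. Pairs called by Pearson's r numbered 0 without DSS replicate 2, 3, 4 or 5 or Control replicate 2, 1 without Control replicate 5 and 4 without Control replicate 4. Vpreb1 and Igll1, partners in the surrogate light chain, had r = 0.16 (permutation p = 0.617, adjusted 0.765) and rho = 0.00 (permutation p = 1, adjusted 1).

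Around the 9 genes, lists of the pathway and of other cells were read from the same fit, where 3.68% of all genes rose, 1.26% fell and the median log2 fold change was -0.02. Of 12 tested B-lineage transcription factor genes 3 rose: Ikzf1 by 0.75, Spi1 by 0.75 and Pou2f2 by 0.87 on the log2 scale (edgeR adjusted p = 0.000382, 0.00247 and 0.00261), all genes that myeloid cells use as well. Of 12 receptor signalling genes 5 rose, Pik3cd, Lyn, Syk, Plcg2 and Btk (the last named after its values were seen), by 0.36 to 0.75, and these kinase and lipase genes also act in myeloid cells. Of 14 other early B genes 12 were tested, with log2 fold changes from -0.61 to 1.21, 8 of them above 0. The 2 called, Bst1 and Myb, rose by 1.21 and 0.93, and whether their RNA came from B-lineage cells was not tested. Of 16 pan-B surface genes 13 passed the filter, with log2 fold changes from -0.53 to 0.70, 6 of them above 0. Cd37 was the 1 gene called and rose by 0.66. Among 11 end-joining genes, Hmgb2, a DNA-bending protein gene, rose by 0.61. Vcam1, an adhesion gene of the marrow niche, rose by 0.49 among 10 niche genes. The median log2 fold changes of these lists were 0.19 for the transcription factors, 0.39 for receptor signalling, 0.19 for early B, -0.01 for surface, -0.06 for end joining and -0.005 for the niche; edgeR called 0 genes of these lists as lower.

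**Figure D4:**
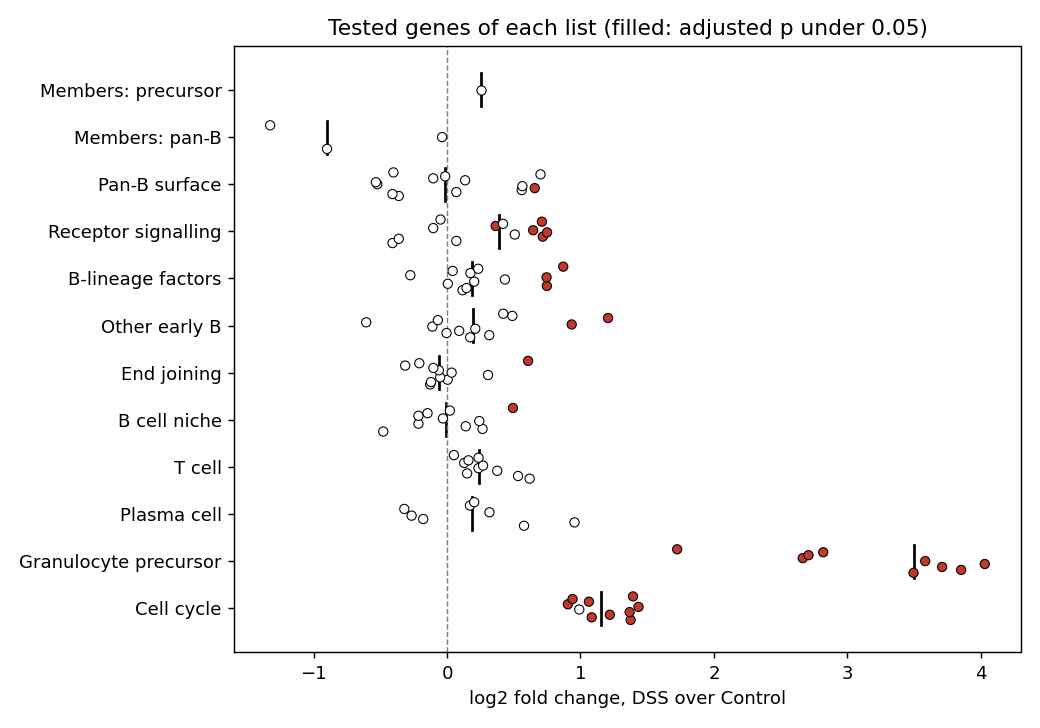
log2 fold change of DSS over Control (horizontal axis) for each tested gene of the 2 member groups and of 10 context lists (vertical axis); a point is a gene, red where the edgeR adjusted p was under 0.05, and the bar is the list's median. Ms4a1 lies at -1.33 and Pax5 at -0.90, both unfilled, and the granulocyte precursor genes lie at 1.72 to 4.03.

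Markers of other cells were read in the same mice. All 9 tested granulocyte precursor markers rose (median log2 fold change 3.50), and their summed level lay between 31.9 and 171 CPM in DSS mice and between 8.22 and 23.9 CPM in Control mice; none of the defining markers Mpo and Elane was at 0. DSS replicate 3, the DSS mouse highest in Ms4a1 and Pax5, was lowest for this sum, and the other DSS mice lay at 113 CPM or above. Among those mice a higher sum did not always go with lower Ms4a1. DSS replicate 5, lowest in Ms4a1 at 0.105 CPM, had the sum of 113 CPM. DSS replicate 1 had the highest sum, 171 CPM, yet lay above DSS replicates 4, 5 and 6 in Ms4a1. DSS replicates 2, 4 and 6 had sums of 126, 154 and 153 CPM, with Ms4a1 at 1.17, 0.287 and 0.266 CPM. Of 10 cell-cycle genes 9 rose (median 1.15), with sums of 42.5 to 129 CPM in DSS mice and 29.7 to 38.2 CPM in Control mice. Of 9 bone markers 3 fell, Acp5, Ctsk and Ibsp, with sums of 611 to 2057 CPM in DSS mice and 1318 to 2627 CPM in Control mice. Of 10 erythroid, 10 T cell, 8 plasma cell, 10 mural and fibroblast and 2 adipocyte markers that passed the filter, 0 were called by edgeR, with 1 unadjusted p under 0.05 in each list. Their part in the differences of the B cell development genes was not tested.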

How the data were processed

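RNA sequencing of 12 meninges samples was analysed, 6 DSS and 6 Control. The deposited count table gives raw whole counts for each symbol, and the other table, deposited as a normalized signal, was read for checks and for limma-trend: its columns equal the counts divided by a median-of-ratios factor. The submitters' processing notes name HISAT2, featureCounts, Trim Galore, FastQC and CASAVA, and the mm10 build; versions, strand setting and handling of multi-mapping reads: not given in the sources used here. Columns were matched to mice by heading. Of 47747 symbols 45251 are in GENCODE M21 on GRCm38.

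Tests used R 4.3.3 with edgeR 4.0.16 (filterByExpr, 10 counts at least and 15 in total; TMM; glmQLFit, glmQLFTest, treatment as the only term, two-sided, Benjamini-Hochberg over 18593 genes). The SE was obtained by dividing the log2 fold change, without sign, by the root of F. log2 CPM has a prior count of 2. Genes under the filter had an exact two-sided permutation test over all splits into 6 and 6 (smallest p 0.00216), unadjusted. Correlations used 100000 resamples. The p-values set a group difference, or a correlation over mice, against the spread between mice. Counting limits cover counting error only. The edgeR fit, on genes that pass the filter, was tested on simulated counts with known fold changes. The permutation and correlation tests were not. Alternatives were DESeq2 1.42.0, limma 3.58.1 (voom and trend), other scalings and filters, the replicate number as a block, and each mouse left out. Genes were named by a rule: all 9 members, up to 4 called genes of each list, the EBF and PAX families, a few set markers, and the 4 genes most like Ms4a1; 1 gene that it names is not reported here. The members, the lists and this rule were chosen with earlier results of these data known.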

Additional observations from a re-analysis of the deposited data

How the results depend on the processing

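The call of 0 of the tested B cell development genes held under 8 of 9 alternatives other than leaving out single mice; limma-voom called 2. With each mouse left out in turn it ran from 0 to 1 (1 without DSS replicate 3). All tested genes called numbered 1554 with DESeq2, 1641 at an adjusted p under 0.1 and 538 to 1379 with each mouse left out. With no filter beyond 1 count it was 750 genes, and with a CPM filter 940. With the replicate number as a block it was 708 genes and 0 members (Ms4a1 -1.66, adjusted p 0.108; Pax5 -1.32). Correlations between mice of the same number ran from -0.189 to 0.154. The labels do not say whether the numbers pair the mice, and these low values cannot exclude it.

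Among genes below the filter, those with an exact permutation p under 0.05 numbered 0 in the main comparison and 0 to 1 with each mouse left out. Dropping both Control replicate 2 and DSS replicate 2, an alternative added after the data were seen, gave Dntt a difference of 0.78 (exact permutation p = 0.0397). Correlated pairs ran from 0 to 4 with each mouse left out. The precursor minus pan-B difference ran from 0.73 to 1.45 over other settings and from 0.855 to 1.15 with each mouse left out.

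Directions turned for 3 genes near 0, and the cause was not tested. Rag1 was -0.54 with limma-voom, -0.16 with limma-trend, -0.13 with the block, -0.11 in mean log2 CPM, -0.19 to 0.49 over 11 single mice left out (-0.19 without DSS replicate 2; without DSS replicate 6 it failed the filter and has no value) and -0.25 without Control replicate 2 and DSS replicate 2. Ebf1 ran from -0.073 to 0.032 with each mouse left out, and was above 0 without DSS replicate 5 (0.017) or Control replicate 1 (0.032). Vpreb3 was 0.18 as an edgeR fitted value with no filter, which changes the statistic as well as the filter, and -0.30 to 0.16 with each mouse left out, above 0 for 7 of them. With few counts per mouse, depth limits all 6 precursor genes: a count of 0 allows up to 0.270 CPM in the shallowest library. It also limits Ms4a1 and Pax5 in the DSS mice where they were low, with lowest counts of 3 for each gene.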
